A study of Homo sapiens with 6 samples.

Results

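Of 61487 gene rows counted in the human chronic myeloid leukaemia line K562, 2275 carry a LINC symbol, the naming scheme for long intergenic noncoding RNAs. The 208 described here were chosen by their level: they averaged at least 2 CPM (the count over the library total, scaled up by 1e6) in azacitidine-sensitive or in azacitidine-resistant cells. A member that reached 2 CPM in 1 group and not in the other therefore had to differ between the groups. There were 138 at 2 CPM in both groups, 43 in sensitive cells only and 27 in resistant cells only. A further 993 LINC-named rows had no count in any library.

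The study compared 3 libraries of sensitive K562 cells with 3 libraries of K562 cells that had become resistant through months of culture in rising azacitidine, a cytidine analogue that inhibits DNA methyltransferases. Every library name ends in NT, a tag that is not read further here. The labels give no drug for the sequenced cultures and do not say whether the resistant cells are 1 clone, a pool or several selections. Total RNA depleted of ribosomal RNA was sequenced with a stranded kit, and total counts ran from 33007642 to 43006918 per library. The labels name the cell type as myeloblast. Of 9 myeloblast markers CTSG was at 0, MPO, ELANE and CD34 averaged below 1 CPM in both groups, and KIT, CD33 and PRTN3 were lower in resistant cells. The summed T cell list (CD3D, CD3E, CD2) was 19.0 to 96.2 CPM in sensitive and 1.68 to 2.39 CPM in resistant libraries, almost all of it CD3D. The summed fibroblast list (COL1A1, COL1A2, DCN) was 0.880 to 2.86 CPM in sensitive and 4.69 to 7.87 CPM in resistant libraries, most of the latter from COL1A2. COL1A1 (means of 1.10 and 0.455 CPM) and DCN did not pass the test. Of 3 epithelial markers CDH1 rose, from a mean of 0.0460 to 6.88 CPM. EPCAM (119 and 104 CPM) and KRT8 (226 and 198 CPM) did not pass. The summed epithelial list was 314 to 401 CPM in sensitive and 270 to 361 CPM in resistant libraries. Of 10 erythroid markers HBE1, with 2 counts over the sensitive and 24 over the resistant libraries, was not tested. None of the others passed in either direction (edgeR). The part of these genes in the results was not tested. In bulk RNA, fewer cells of a type and less RNA per cell cannot be told apart.

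Long intergenic noncoding RNAs are transcribed mostly by RNA polymerase II, are often spliced and polyadenylated, and encode no known protein. Many are retained in the nucleus and are present in few cell types, and their transcription can mark an active stretch of chromatin that includes neighbouring genes. A LINC symbol is a name by position and implies no function. In GENCODE 29 on GRCh38, 163 of the 206 members with an entry are typed as lincRNA, 12 as antisense RNA, 10 as pseudogenes and LINC02693 as protein-coding. Another annotated gene overlaps 103 members, on the other strand for 83 of them. The strand setting of the counting is not given in the sources used here, so the counts of those members are uncertain.

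Promoter sequences are shown for 6 of the members that differed most, since CpG dinucleotides are the sites that DNA methyltransferases modify. They are the 3 highest and 3 lowest fold changes among the members whose promoters could be printed, taken from the RefSeq promoter table (GRCh38.p14). Each sequence runs 5′ to 3′ on the gene's strand, from 250 bases before the annotated start to 50 after it, with each CpG in capitals.
LINC00507 (chr12:127915160-127915459, plus strand): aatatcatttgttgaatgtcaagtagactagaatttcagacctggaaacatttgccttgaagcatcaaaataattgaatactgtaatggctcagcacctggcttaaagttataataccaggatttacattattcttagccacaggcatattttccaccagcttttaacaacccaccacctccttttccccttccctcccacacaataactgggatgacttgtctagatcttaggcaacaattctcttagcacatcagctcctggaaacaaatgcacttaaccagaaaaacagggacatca
LINC02393 (chr12:127881367-127881666, plus strand): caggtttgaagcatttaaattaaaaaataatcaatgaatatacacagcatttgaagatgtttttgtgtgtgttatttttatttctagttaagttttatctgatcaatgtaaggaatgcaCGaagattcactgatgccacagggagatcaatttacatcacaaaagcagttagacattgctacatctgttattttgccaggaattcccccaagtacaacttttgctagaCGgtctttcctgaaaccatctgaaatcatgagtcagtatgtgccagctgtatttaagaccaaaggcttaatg
LINC02860 (chr7:26637621-26637920, plus strand): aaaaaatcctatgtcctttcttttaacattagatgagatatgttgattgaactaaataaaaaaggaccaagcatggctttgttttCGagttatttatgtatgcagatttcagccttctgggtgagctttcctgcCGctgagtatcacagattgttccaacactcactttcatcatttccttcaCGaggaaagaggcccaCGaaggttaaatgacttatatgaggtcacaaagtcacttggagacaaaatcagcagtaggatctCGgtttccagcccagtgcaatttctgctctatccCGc
LINC02458 (chr12:89019643-89019942, minus strand): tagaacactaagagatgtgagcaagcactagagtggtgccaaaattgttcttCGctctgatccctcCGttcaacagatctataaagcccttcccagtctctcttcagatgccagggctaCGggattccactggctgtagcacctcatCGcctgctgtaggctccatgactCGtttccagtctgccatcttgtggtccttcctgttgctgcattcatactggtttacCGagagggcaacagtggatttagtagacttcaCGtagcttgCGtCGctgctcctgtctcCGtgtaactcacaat
LINC00261 (chr20:22578593-22578892, minus strand): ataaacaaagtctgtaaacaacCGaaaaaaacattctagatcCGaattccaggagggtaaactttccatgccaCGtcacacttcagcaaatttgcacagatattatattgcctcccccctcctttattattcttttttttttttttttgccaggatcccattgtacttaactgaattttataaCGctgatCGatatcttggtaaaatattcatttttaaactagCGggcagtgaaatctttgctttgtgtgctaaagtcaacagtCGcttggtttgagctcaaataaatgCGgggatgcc
LINC02241 (chr5:20611590-20611889, plus strand): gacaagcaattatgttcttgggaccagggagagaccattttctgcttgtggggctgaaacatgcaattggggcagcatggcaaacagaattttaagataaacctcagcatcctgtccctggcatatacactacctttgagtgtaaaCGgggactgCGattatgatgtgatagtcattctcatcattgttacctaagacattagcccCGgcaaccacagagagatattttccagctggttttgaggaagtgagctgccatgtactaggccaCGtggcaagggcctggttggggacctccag
LINC00507, LINC02393 and LINC02860 were higher in resistant cells, and LINC02458, LINC00261 and LINC02241 were lower. The number of CpG among the 3 higher members was 0, 2 and 6, and among the 3 lower members 10, 8 and 4, in the order printed.

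The members' share of all counts overlapped between the groups, whereas their summed level after TMM scaling did not. They held 0.255%, 0.238% and 0.188% of all counts in sensitive libraries and 0.212%, 0.189% and 0.166% in resistant libraries, so that the lowest sensitive library lay below 2 of the 3 resistant libraries. Scaled by TMM factors, as are all levels from here on, the members summed to 2399 ± 207 CPM (SD, n = 3) in sensitive and 1779 ± 174 CPM (SD, n = 3) in resistant cells. The groups did not overlap, with the lowest sensitive library at 2160 CPM and the highest resistant library at 1939 CPM. The 138 members at 2 CPM in both groups summed to 2075 ± 154 and 1655 ± 163 CPM (SD, n = 3 each), with the lowest sensitive library at 1901 CPM and the highest resistant library at 1805 CPM. The members were chosen by these levels, and the sums were not tested. The median member was at 5.14 CPM in sensitive and 3.56 CPM in resistant cells, and 66 and 52 members reached 10 CPM. Relative to the sensitive mean, the median member read 0.03, 0.05 and -0.06 on the log2 scale in sensitive and -0.17, -0.18 and -0.40 in resistant libraries. Replicate 3 was the lowest of its group in each case. For 68 members (32.7%) both libraries numbered 3 were the lowest of their groups, which also held for 24.98% of all tested genes.

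All 208 members entered the test across 20891 genes. Here 20 members rose and 62 fell in resistant cells (edgeR quasi-likelihood test, Benjamini-Hochberg adjusted p below 0.05), against 9.83% of all tested genes that rose and 13.1% that fell. Scaling by library totals alone gave 30 higher and 53 lower. Leaving out sensitive replicate 1 gave 13 and 47, leaving out resistant replicate 2 gave 11 and 47, and leaving out both libraries numbered 3 38 and 74. The median log2 fold change was -0.23 for the members and 0.03 for all tested genes, and -0.05 and 0.20 when library totals alone were used. The libraries of the 2 groups did not overlap for 116 members (55.8%), against 40.1% of all tested genes.

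Those counts include the members that the rule made differ, which hold 46 of the 82 calls. Among the 138 members at 2 CPM in both groups, 8 rose (5.80%) and 28 fell (20.3%), with a median of -0.15. Of the 11900 tested genes at that level in both groups, 10.0% rose and 14.1% fell, with a median of -0.04. The groups did not overlap for 60 of the 138 (43.5%), against 42.1% of the genes at that level. In the class at 2 CPM only in sensitive cells 34 of 43 fell, and in the class at 2 CPM only in resistant cells 12 of 27 rose, with groups that did not overlap for 38 and 18 members. Directions in those 2 classes follow from the choice of members. Just inside the threshold, by raw CPM, lay LINC00847 (2.00 in sensitive, 1.62 in resistant), LINC02613 (2.01 and 1.90) and LINC01993 (1.96 and 2.01). Just outside were LINC02615 (1.99 and 1.41), LINC01192 (1.97 and 1.74) and LINC01144 (1.97 and 1.37).

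**Figure D1:**
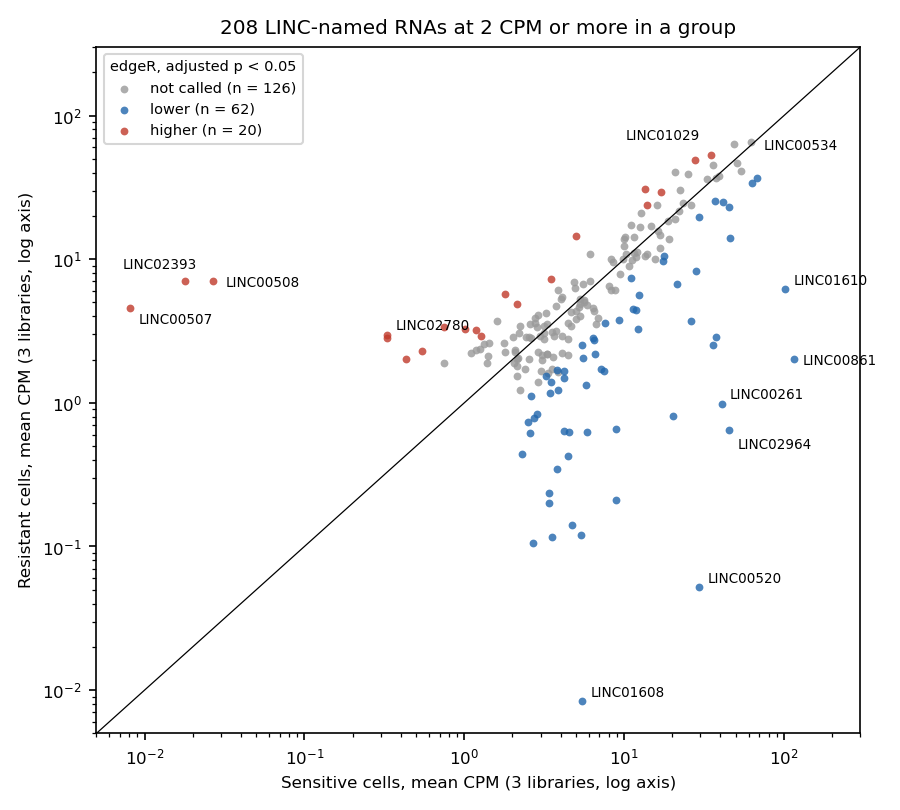
Mean CPM of the 208 LINC-named RNAs in sensitive (x axis) and resistant (y axis) cells, both log axes, each over 3 libraries, coloured by the edgeR call. The line marks equal levels. The 62 lower members reach far below it, down to LINC00520 and LINC01608, and 3 of the 20 higher members (LINC00507, LINC00508, LINC02393) stand at the far left.

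Per kilobase of annotated exon, LINC01610 was the most abundant member of sensitive cells. LINC01610 lies on chromosome 6 (70394887 to 70399417, plus strand) and has 397 exonic bases. It read 116, 118 and 69.6 CPM in sensitive and 6.12, 6.89 and 5.64 CPM in resistant libraries, with no overlap. That is 255 against 15.7 CPM per kb, and a log2 fold change of -4.02 ± 0.24 (SE, adjusted p = 4.08e-06). The next in sensitive cells were LINC00534 at 46.0, LINC02772 at 41.6, LINC02506 at 35.8 and LINC02573 at 32.5 CPM per kb. LINC01033 (29.7), LINC02476 (25.6) and LINC01029 (23.1) completed the first 8. In resistant cells LINC00534 led at 48.3 CPM per kb, followed by LINC00508 (36.4), LINC02506 (32.6), LINC01029 (30.1), LINC02476 (23.4), LINC03021 (21.8) and LINC02840 (17.4), with LINC01610 eighth. Apart from LINC00508, at 2 CPM only in resistant cells, these all reached 2 CPM in both groups. The value for LINC00508 rests on only 194 exonic bases inside the span of LINC00507 on the other strand. LINC00534, LINC02506, LINC02476 and LINC01029 were among the first 8 in both groups and passed the test in neither direction.

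Among the first 8 of sensitive cells, 4 fell. Besides LINC01610, LINC01033 on chromosome 5 read 48.1, 43.1 and 21.3 CPM in sensitive and 2.63, 3.47 and 2.54 CPM in resistant libraries (log2 -3.70 ± 0.32, adjusted p = 3.75e-05). LINC02772 on chromosome 1 went from 25.7, 26.6 and 26.1 to 2.46, 2.21 and 6.43 CPM (log2 -2.82, adjusted p = 0.000548, and -3.50 without resistant replicate 3). LINC02573 on chromosome 21 went from 24.8, 24.5 and 34.9 to 6.81, 10.1 and 7.92 CPM (log2 -1.76, adjusted p = 0.00039). In all 4 the resistant libraries lay below every sensitive library.

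The 12 lowest members, and the 12 highest below, were taken among called members whose libraries did not overlap between the groups. Their separation therefore follows from the choice. Of the 12 lowest 11 reached 2 CPM only in sensitive cells, LINC00861 being the other, so their direction follows from the rule. The lowest fold change belonged to LINC00520 on chromosome 14 (55781132 to 55796731, minus strand, no overlapping gene). LINC00520 read 29.7, 33.6 and 25.2 CPM in sensitive libraries and 0.0554, 0.101 and 0 CPM in resistant libraries. Over each group that is 3272 counts against 6, a log2 fold change of -9.04 ± 0.42 (SE, adjusted p = 1.42e-06), and -9.92 without resistant replicate 2. KTN1, which encodes the membrane protein kinectin and has the nearest protein-coding start at 238 kb, did not pass the test (log2 -0.11).

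Chromosome 8 held 3 of the 4 lowest members. LINC01608 (110937690 to 111027433, minus strand) had 607 counts over the sensitive and 1 over the resistant libraries, a ratio of 621 with a 95% exact binomial interval of 111 to 24554 that covers counting error only. LINC00861 (125922308 to 125951249, minus strand) read 187, 147 and 11.8 CPM in sensitive and 2.46, 2.39 and 1.23 CPM in resistant libraries. LINC02964, placed by RefSeq at 125519907 to 125680134, read 69.8, 60.4 and 5.92 CPM and then 0.941, 0.83 and 0.157 CPM. In both, sensitive replicate 3 lay far below the other sensitive libraries and, as the choice required, above every resistant library. Their log2 fold changes were -5.83 ± 0.88 (adjusted p = 0.00125) for LINC00861 and -6.14 ± 0.91 (adjusted p = 0.00116) for LINC02964. The nearest tested start to LINC00861, that of the pseudokinase gene TRIB1 at 521 kb, gave a log2 fold change of -0.48 that missed the threshold, -0.65 (adjusted p = 0.049) without sensitive replicate 3, and -0.63 (0.0495) without resistant replicate 3.

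LINC00261 on chromosome 20 (22547671 to 22578642, minus strand) is known from definitive endoderm, where it is transcribed beside FOXA2. It read 25.7, 53.9 and 42.8 CPM in sensitive and 0.498, 1.21 and 1.26 CPM in resistant libraries (log2 -5.35 ± 0.39, adjusted p = 1.3e-05). FOXA2, a forkhead transcription factor of endoderm whose start lies 6.81 kb away, went from 3.81, 6.67 and 6.11 to 0.0554, 0.151 and 0.0525 CPM (log2 -5.93, adjusted p = 2.59e-05, and -6.59 without resistant replicate 2). Every resistant value of FOXA2 was below every sensitive value, as for LINC00261, which was chosen with that condition.

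The other 7 of the 12 lowest members had under 1 CPM in every resistant library. LINC02432 on chromosome 4 was the most counted of them, at 23.3, 24 and 13.5 CPM in sensitive and 0.83, 0.981 and 0.603 CPM in resistant libraries (log2 -4.65). LINC01366 on chromosome 5 read 9.24, 8.72 and 8.6 CPM and then 0.166, 0.251 and 0.21 CPM (log2 -5.38). LINC02241 on the same chromosome read 4.91, 3.91 and 5.41 CPM and then 0.166, 0.101 and 0.157 CPM (log2 -5.04). LINC02458 on chromosome 12 read 3.32, 7.39 and 5.44 CPM and then 0.0554, 0.251 and 0.0525 CPM (log2 -5.43, and -6.55 without resistant replicate 2). LINC02484 on chromosome 4, LINC03077 on chromosome X and LINC02625 on chromosome 10 had means of 2.69 to 3.55 CPM in sensitive and 0.106 to 0.202 CPM in resistant cells. For these 7 members the adjusted p was between 2.64e-06 (LINC01366) and 0.00164 (LINC02484).

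Smaller falls were measured among members with more counts. LINC00963 on chromosome 9 went from 78.1, 78.5 and 45.7 to 37.9, 34.9 and 36.9 CPM (log2 -0.88, adjusted p = 0.0136), a call lost when resistant replicate 2 was left out (adjusted p = 0.068), and likewise for sensitive replicate 1 (0.060) and replicate 2 (0.056). LINC00662 on chromosome 19 went from 56.9, 59 and 72.6 to 30.8, 30.6 and 40.3 CPM (log2 -0.89, adjusted p = 0.00492). LINC00467 on chromosome 1 went from 47.9, 36.2 and 52.5 to 19.7, 19.2 and 30.9 CPM (log2 -0.97, adjusted p = 0.0121, and 0.078 without resistant replicate 2). All 3 kept to non-overlapping ranges. LINC02193 on chromosome 16 had a larger fall, from 42.8, 43.5 and 22.2 to 2.27, 2.29 and 3.04 CPM (log2 -3.83 ± 0.29, adjusted p = 1.73e-05). These 4 were chosen after their values were seen.

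Of the 12 highest called members whose libraries did not overlap, 11 reached 2 CPM only in resistant cells, and LINC00470 reached it in both groups. LINC01087, called higher at log2 1.52, was not among these 12. Of the 20 members that rose, the 3 largest changes belonged to neighbours on chromosome 12 between 127881617 and 127951552. LINC02393 (127881617 to 127898639, plus strand) had 0, 0 and 2 counts in sensitive libraries and read 7.2, 6.97 and 6.87 CPM in resistant libraries. LINC00508 (127940595 to 127950160, minus strand) had 0, 0 and 3 counts and read 5.32, 8.52 and 7.32 CPM. LINC00507 (127915372 to 127951552, plus strand) had 1, 0 and 0 counts and read 7.03, 4.88 and 1.86 CPM. The ratios of scaled counts were 391 (95% exact binomial interval 108 to 3232) for LINC02393, 264 (90.04 to 1283) for LINC00508 and 508 (90.7 to 20087) for LINC00507, with adjusted p of 1.03e-05, 3.02e-05 and 0.000103.

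LINC02393 was even across the resistant libraries, whereas LINC00507 was lowest in resistant replicate 3, where LINC00508 was not. LINC00507 and LINC00508 overlap on opposite strands, so reads of one may have been counted for the other. The protein-coding start nearest to all 3 is that of TMEM132C, 317 kb or more away, which had too few counts to be tested. Neither printed promoter of the cluster holds more than 2 CpG in 300 bases, and the table has no entry for LINC00508.

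The other members among the 12 highest stayed below 9 CPM in every library, apart from LINC00470. LINC02780 on chromosome 1 read 0.342, 0.481 and 0.161 CPM in sensitive and 2.63, 2.34 and 3.99 CPM in resistant libraries (log2 3.18 ± 0.46, adjusted p = 0.00099). LINC02860 on chromosome 7 read 0.269, 0.721 and 0 CPM and then 2.93, 3.67 and 1.89 CPM (log2 3.12 ± 0.81, adjusted p = 0.0212). The LINC02860 call was lost with DESeq2 (adjusted p = 0.0595) and on leaving out sensitive replicate 1 (0.087) or resistant replicate 2 (0.079). Its log2 fold change was 4.30 with sensitive replicate 2 left out and 2.52 with sensitive replicate 3 left out. LINC02983 (chromosome 7), LINC00648 (chromosome 14) and LINC01887 (chromosome 18) rose by 2.16, 2.22 and 2.08 on the log2 scale, from means of 0.431 to 0.751 CPM. LINC00891 (chromosome X), LINC01344 (chromosome 1) and LINC03057 (chromosome 17) rose by 1.67, 1.69 and 1.43 from means of 1.01 to 1.79 CPM. The LINC01344 call was lost without resistant replicate 2 (adjusted p = 0.056).

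LINC00470 on chromosome 18 read 13.1, 12 and 15.4 CPM in sensitive and 40, 32.3 and 20.7 CPM in resistant libraries (log2 1.20 ± 0.24, adjusted p = 0.00576). Among members with more counts, LINC00205 on chromosome 21 rose from 28, 26.5 and 29.2 to 46.7, 46.4 and 54.2 CPM (log2 0.82 ± 0.15, adjusted p = 0.00305). LINC01694 on the same chromosome rose from 34, 37 and 33.9 to 60.3, 50.3 and 48.5 CPM (log2 0.60, adjusted p = 0.0164), a call lost without either of the first 2 replicates of either group (adjusted p = 0.059 to 0.089). LINC00205 and LINC01694 were chosen after their values were seen.

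**Figure D2:**
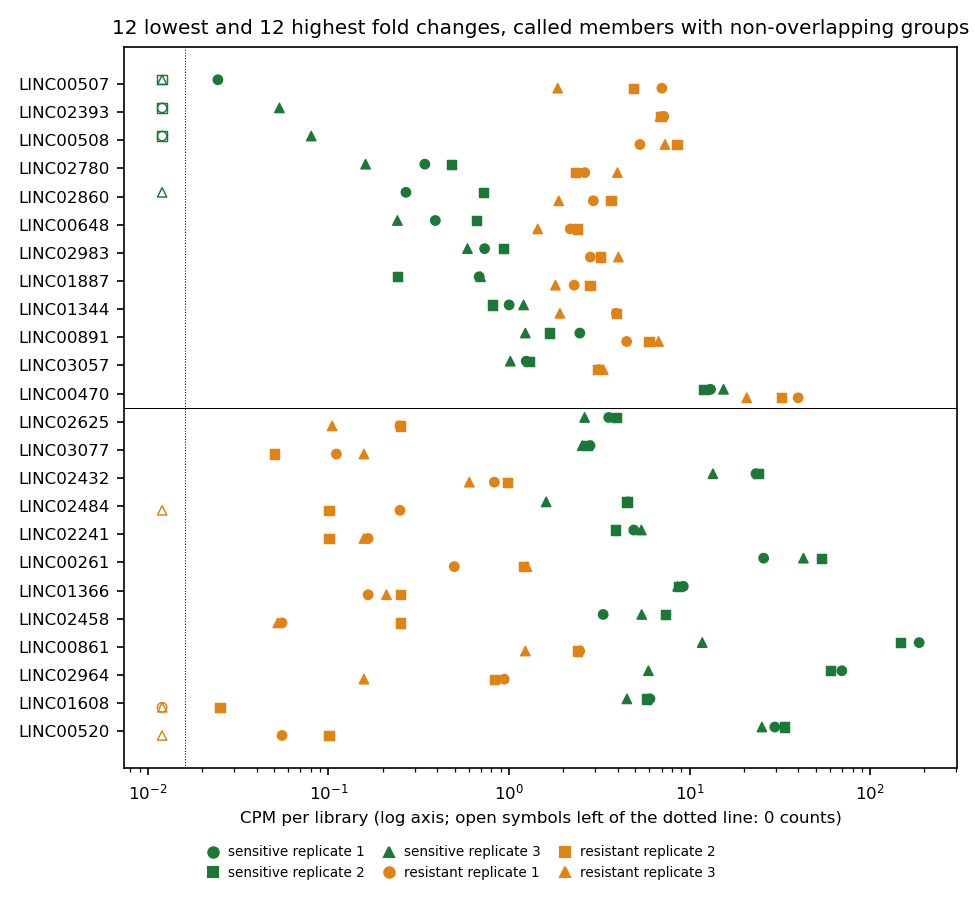
CPM in each library (log x axis) for the 12 highest and the 12 lowest fold changes among called members whose groups do not overlap, with green for sensitive and orange for resistant libraries and 1 symbol shape per replicate. Open symbols left of the dotted line are libraries with 0 counts. LINC00861 and LINC02964 show 1 sensitive library, replicate 3, well to the left of the other 2.

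Another 126 members passed the test in neither direction. The 5 of them with the highest CPM were LINC00534, LINC01029, LINC02864, LINC02476 and LINC01234. LINC00534 on chromosome 8 read 64.4, 60.7 and 61.6 CPM in sensitive and 85.3, 70.8 and 40 CPM in resistant libraries (log2 0.07 ± 0.24). LINC02476 on chromosome 7 read 53.2, 49.1 and 50.6 CPM and then 57.7, 49.4 and 32.8 CPM (log2 -0.13 ± 0.20). In both, resistant replicate 3 was the lowest library and the groups overlapped. LINC02864 on chromosome 18 (54, 55.5 and 51.5 against 44.2, 42.4 and 36.3 CPM, log2 -0.39) and LINC01029 on the same chromosome (51.9, 53.6 and 39.9 against 71.4, 57.8 and 60 CPM, log2 0.38) did not overlap between groups and had adjusted p of 0.0781 and 0.133. LINC02864 was called lower without both libraries numbered 3 (adjusted p = 0.021). LINC01234 on chromosome 12 had a log2 fold change of 0.33 (adjusted p = 0.227), which passed when library totals alone were used (0.041) and without both libraries numbered 3 (0.021).

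Members near each other moved together in some places and not in others. Starts of 23 members lay within 200 kb of another member's, in 10 groups. In 3 groups all members were called in 1 direction: the 3 on chromosome 12 above, LINC02416 with LINC02156 on chromosome 12, and LINC02804 with LINC02805 on chromosome 1. LINC02416 (47353754 to 47369935) went from 2.54, 5.32 and 2.36 to 0.194, 0.277 and 0.236 CPM (log2 -3.83 ± 0.46), and LINC02156 (47377683 to 47420179) from 5.65, 7.72 and 4.21 to 0.526, 0.704 and 0.656 CPM (log2 -3.21 ± 0.34). LINC02805 went from 49.1, 44.7 and 44.9 to 10.8, 13.6 and 18.1 CPM (log2 -1.71), while the call of LINC02804 (log2 -1.23, adjusted p = 0.0347) was lost on leaving out 1 of the first 2 sensitive libraries or resistant replicate 1 (0.079 to 0.115). LINC02804 also lost it with library totals alone (0.069) and with upper quartile scaling (0.056). Both LINC02804 and LINC02805 lie among segmental duplications of chromosome 1 with NBPF genes, where reads of near-identical copies can be split. In 3 groups no member was called. One group, on chromosome 1, held opposite calls, with LINC02593 lower (log2 -2.06, adjusted p = 0.00104) and LINC01128 higher (log2 0.79, adjusted p = 0.0086). The LINC01128 call was lost without sensitive replicate 2 (0.058) and without resistant replicate 2 (0.056).

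The nearest protein-coding gene by annotated start was taken for each member with one within 1 Mb. This gave 192 pairs with 182 neighbours at a median distance of 76.6 kb, 17 of them within 5 kb, and left 14 members without a neighbour. Of the 137 neighbours tested, 15 rose (10.9%) and 28 fell (20.4%), against 11.6% and 15.3% of all protein-coding genes tested. Where the member was not called, the neighbour rose in 12 pairs, fell in 15, was not called in 61 and was untested in 29. Of 75 pairs whose member was called, the neighbour was untested in 20, not called in 35 and called in 20. Among those 20 pairs 16 moved in the same direction, 4 up and 12 down, and 4 in opposite directions. Members at 2 CPM in both groups made up 34 of the 75 pairs and 7 of the 20, and 6 of those 7 moved in the same direction. The number moving together fell to 7 on leaving out resistant replicate 2 and 9 on leaving out sensitive replicate 1, and was 34 without both libraries numbered 3. Members and neighbours come from the same 6 libraries.

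Pairs that fell together included LINC00261 with FOXA2, as above, and LINC02625 with ARID5B on chromosome 10. LINC02625 (61781745 to 61821246, minus strand) went from 3.57, 3.94 and 2.62 to 0.249, 0.251 and 0.105 CPM (log2 -4.04 ± 0.43). ARID5B, a DNA-binding cofactor known from acute lymphoblastic leukaemia risk, went from 18.4, 15.6 and 21.1 to 0.886, 0.956 and 0.839 CPM (log2 -4.36, adjusted p = 2.13e-06). LINC02416 and LINC02156 share the neighbour AMIGO2, which encodes a cell adhesion protein, some 274 and 298 kb away. AMIGO2 went from 23.4, 35.1 and 32 to 4.15, 5.53 and 3.75 CPM (log2 -2.75, adjusted p = 3.13e-05). LINC02593 and SAMD11 start 2.91 kb apart and are transcribed away from each other, and SAMD11 went from 7.8, 8.66 and 4.45 to 1.94, 1.76 and 1.65 CPM (log2 -1.96, adjusted p = 0.00148). SAMD11 is also the nearest start to LINC01128, at 98.8 kb, which rose.

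Neighbours also fell with LINC01094 (ANXA3, an annexin, log2 -3.21), LINC01215 (CD47, the ligand of SIRPα that restrains phagocytosis, log2 -1.10) and LINC01610 (FAM135A, log2 -0.69). LINC01094 lost its call without sensitive replicate 3 (adjusted p = 0.082) and without resistant replicate 2 (0.094). The neighbours of LINC02432 (ZNF330), LINC01451 (EGFL7), LINC03049 (ZNF30) and LINC01305 (SP9) fell with log2 changes of -0.65, -0.61, -1.03 and -2.30, and each of these 4 neighbours lost its call with 1 library left out. For ZNF330 and EGFL7 this held for replicates 1 and 2 of the resistant group, for replicate 1 of the sensitive group, and for sensitive replicate 3 (ZNF330) or 2 (EGFL7), with adjusted p of 0.069 to 0.121. ZNF30 lost its call without resistant replicate 2 (0.051). SP9 lost it without either of the first 2 sensitive libraries or resistant replicate 1 or 3 (0.060 to 0.156), and read -3.39 without resistant replicate 2. LINC01305 itself lost its call without either of the first 2 libraries of either group (0.071 to 0.130). With library totals alone EGFL7 (0.083), SP9 (0.055) and LINC01305 (0.069) lost their calls, and SP9 also with upper quartile scaling (0.053). The 4 pairs that rose together were LINC01694 with SLC19A1, the reduced folate carrier (log2 1.13), LINC01087 with CCDC74A (2.47), LINC02860 with SNX10, a sorting nexin (1.00), and LINC02780 with C1orf174 (0.52). In each of these pairs the member or the neighbour lost its call without resistant replicate 2 (adjusted p = 0.063 for LINC01694, 0.096 for LINC01087, 0.079 for LINC02860 and 0.152 for C1orf174). C1orf174 also lost its call without either other resistant library or sensitive replicate 1 or 2 (0.059 to 0.224), and LINC01087 without resistant replicate 1 or any 1 sensitive library (0.079 to 0.182). Both lost it with limma-voom (0.0502 and 0.081), and LINC01087 with a filter of at least 50 counts in 3 libraries (0.053). C1orf174 also lost it with RLE scaling (0.055), with no low count filter (0.080) and without mitochondrial genes and the 10 most abundant features (0.059).

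The 4 opposite pairs were LINC00648 with MDGA2, LINC01344 with GLUL, LINC01128 with SAMD11 and LINC00656 with CD93. LINC00648 rose from 0.391, 0.661 and 0.241 to 2.19, 2.39 and 1.44 CPM, while MDGA2, which encodes a cell surface protein of neurons, went from 0.66, 0.421 and 1.39 to 0.111, 0 and 0 CPM (log2 -4.42 ± 1.00, adjusted p = 0.0109, -7.97 without resistant replicate 1, and -3.83 without sensitive replicate 3). GLUL, glutamine synthetase, averaged 2531 CPM in sensitive and 1060.0 CPM in resistant cells (log2 -1.26, adjusted p = 0.0265), and lost its call on leaving out replicate 1 or 3 of the sensitive group (0.060 and 0.095) or 1 or 2 of the resistant group (0.080 and 0.127). LINC00656 fell (log2 -1.32, lost on leaving out replicate 1 or 2 of the sensitive group or 2 of the resistant group), and CD93, a surface glycoprotein of myeloid and endothelial cells, rose from 2.27, 2.46 and 1.12 to 6.56, 8.55 and 9.86 CPM (log2 2.09).

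**Figure D3:**
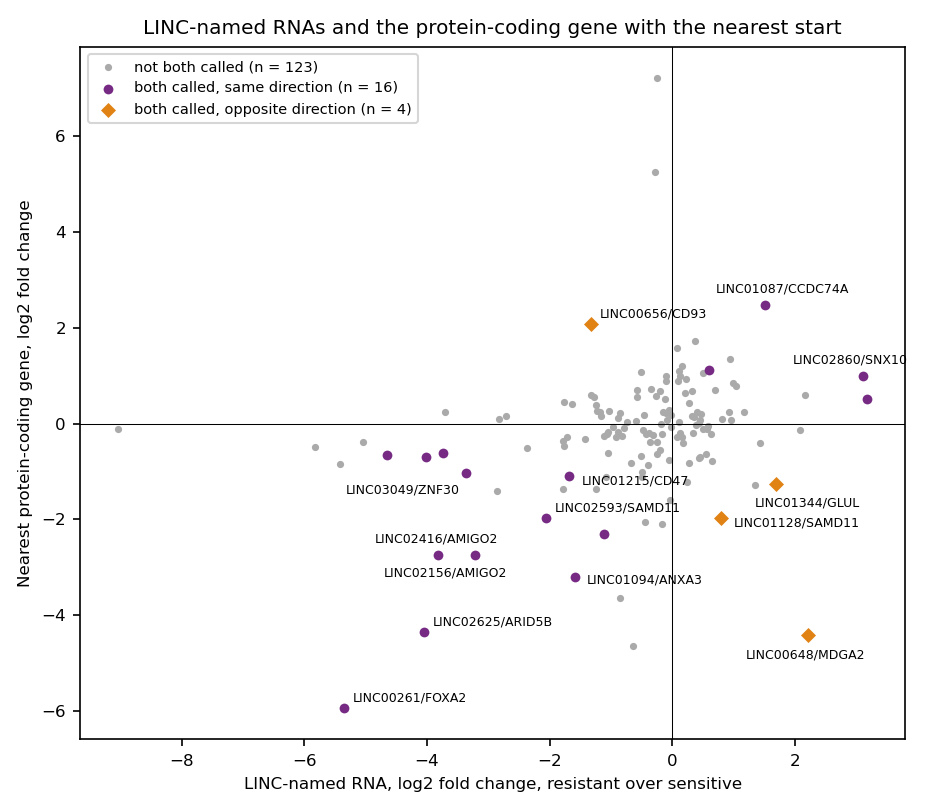
Log2 fold change, resistant over sensitive, of each LINC-named RNA (x axis) and of the protein-coding gene with the nearest start (y axis), for pairs in which both were tested. Purple marks the 16 pairs called in the same direction, orange diamonds the 4 called in opposite directions, and grey the other 123. LINC00261 with FOXA2 lies lowest, at -5.35 and -5.93.

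Large changes of a neighbour also stood beside members that were not called. LRFN5, a synaptic adhesion gene, had 0, 0 and 0.0536 CPM in sensitive and 2.71, 3.34 and 3.38 CPM in resistant libraries, while LINC02315 at 653 kb had a log2 fold change of -0.24. H1-1, a linker histone gene, went from 0.367, 0.421 and 0.134 to 11, 10.9 and 13.7 CPM (log2 5.27), beside LINC02980 at 25.1 kb with -0.28. PLA2G4A, the cytosolic phospholipase that releases arachidonic acid, went from 59.4, 56.2 and 93.8 to 1.77, 3.32 and 3.2 CPM (log2 -4.65), and LINC01036 at 242 kb had -0.65 (adjusted p = 0.0649). PIK3CG, a catalytic subunit of phosphoinositide kinase in blood cells, had -2.05 beside LINC02577 with -0.45 (adjusted p = 0.072). These 4 pairs were chosen after their values were seen. Of the 12 pairs transcribed away from each other from starts within 5 kb, both genes were called in 1, LINC02593 with SAMD11.

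Around some called members several tested protein-coding genes within 1 Mb were called. Across members with at least 3 such genes, the median of the genes' median log2 fold changes was 0.07 around 15 members that rose, -0.07 around 48 that fell and 0.02 around 99 that were not called. For members at 2 CPM in both groups these were 0.07 (7 members), -0.03 (23) and 0.03 (75). The 4 places described next were chosen after their values were seen. Around LINC02625, CABCOCO1, ARID5B, RTKN2 and RHOBTB1 all fell, with log2 changes of -3.73, -4.36, -2.87 and -1.06, and ADO at 984 kb did not pass (0.24). RTKN2 lost its call without sensitive replicate 2 (adjusted p = 0.051). Around LINC01366, LCP2, an adaptor of immune receptor signalling 33.2 kb away, went from 35.3, 38.8 and 42.6 to 2.08, 1.36 and 1.1 CPM (log2 -4.69 ± 0.25). C5orf58 (log2 -4.31, and -4.93 without resistant replicate 3) and DOCK2, an activator of Rac in blood cells (163 to 29.2 CPM, log2 -2.47), fell as well, and SPDL1, INSYN2B and RANBP17 were not called.

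Around LINC01215 on chromosome 3, which went from 18.1, 12.6 and 33.9 to 7.34, 7.17 and 5.61 CPM (log2 -1.68 ± 0.33), 5 of 6 tested genes fell. They were CD47 (log2 -1.10), MYH15, a myosin heavy chain (-3.25), DZIP3, a ubiquitin ligase (-0.90), IFT57, a component of cilia transport (-0.73), and BBX (-0.56), and CIP2A was not called (-0.03). IFT57 lost its call on leaving out replicate 1 or 3 of the sensitive group or 1 or 2 of the resistant group, and BBX on leaving out 1 or 2 of the sensitive or 2 of the resistant group. With library totals alone IFT57 (adjusted p = 0.052) and BBX (0.075) lost their calls too. Around LINC01497 on chromosome 17 the called genes went the other way. LINC01497 fell from 2.84, 3.22 and 2.12 to 0.941, 1.11 and 0.315 CPM (log2 -1.78, adjusted p = 0.0198, lost on leaving out replicate 1 or 2 of the sensitive group). KCNJ16, a potassium channel subunit gene with the nearest tested start at 91.8 kb, read 14, 15.1 and 7.39 CPM in sensitive and 7.23, 5.46 and 1.47 CPM in resistant libraries, with no overlap. KCNJ16 missed the threshold (log2 -1.36, adjusted p = 0.0714) and was called lower with DESeq2 (0.014), with no low count filter (1.92e-06) and without resistant replicate 1 (0.039), resistant replicate 3 (0.041) or both libraries numbered 3 (5.25e-05). The transporter genes ABCA5, ABCA6 and ABCA9, 634 to 901 kb away, rose by 3.63, 3.00 and 2.69 on the log2 scale, and ABCA10 was not called (0.20). ABCA5 read 0.733, 1.62 and 0.161 CPM in sensitive and 11.8, 10.1 and 9.02 CPM in resistant libraries (log2 4.48 without sensitive replicate 2).

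**Figure D4:**
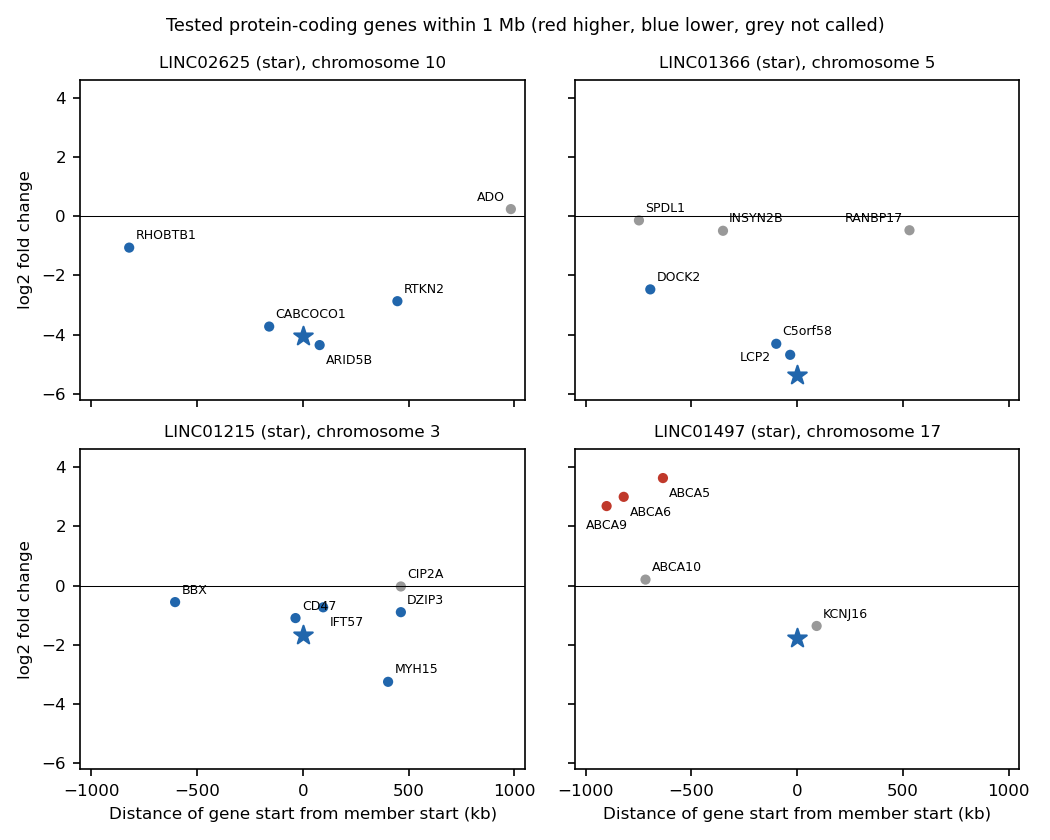
Log2 fold change (y axis) of the tested protein-coding genes within 1 Mb of 4 members, by distance of their start from the member's start in kb along the chromosome (x axis). Stars are the members, red genes rose, blue fell and grey were not called. The 3 ABCA genes that rose (log2 2.69 to 3.63) stand far to the left of LINC01497, and LCP2 and C5orf58 stand just to the left of LINC01366.

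A few features that the rule did not use are described here by call. All 3 sets had a median of 4 exons in their longest transcript model by exon number. Median exonic length was 3228 bases for members that rose, 2151 for those that fell and 2400 for those not called, and the median distance to the nearest protein-coding start was 93.7, 55.3 and 74.9 kb. RefSeq promoters were matched for 123 members, none of them on chromosome 8, and those members' median was 9 CpG in 300 bases, against 14 for all 35116 promoters of the table. By call, the median was 5 for 10 members that rose, 7 for 33 that fell and 11 for 80 not called. At least 10 CpG were present in 30% of members that rose, 39.4% of those that fell and 53.8% of those not called, against 56.4% of all promoters. The matched promoter started more than 1000 bases from the GENCODE start of the member for 19 of the 123, at most 353 kb from it, a limit set after the data were seen. Over the other 104 the medians were 6 for 9 that rose, 6.5 for 26 that fell and 13 for 69 not called. Among matched members at 2 CPM in both groups they were 20, 8.5 and 13, over 2, 14 and 65 members. These are descriptions of the sets, and no test of the differences was made.

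**Figure D5:**
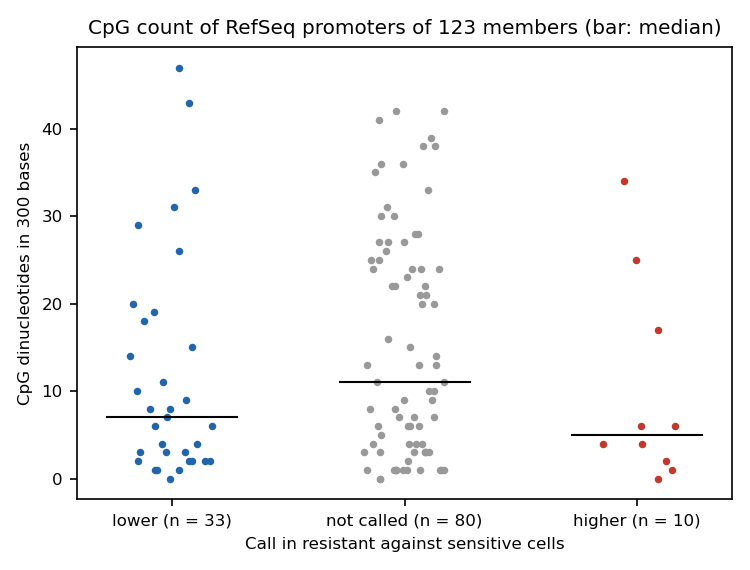
CpG dinucleotides in the 300-base RefSeq promoter (y axis) of 123 members, split by their call (x axis), with the median as a bar. The 3 sets overlap over most of the range, and the medians are 7 for lower, 11 for not called and 5 for higher members.

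Of 2 short motifs searched on both strands of those promoters, TATAAA was in 16.3% of the 123 members' promoters and in 11.5% of all promoters. GATAAG, letters that GATA factors of blood cells can bind, was in 8.13% of the members' and 6.36% of all promoters. Among the 6 printed sequences TATAAA was found in LINC02458 on the printed strand and in LINC00261 on the other strand. These matches start 171 and 74 bases before the start site, and GATAAG was found in none. A match is a match of letters in this window.

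Long noncoding RNAs are removed in the nucleus by the RNA exosome and its adaptors, and in the cytoplasm by XRN1. From a list of 31 such decay genes, all tested, 6 rose and 2 fell, with a median log2 fold change of 0.02, against 11.6% and 15.3% of all protein-coding genes tested. EXOSC6, a subunit of the exosome ring, rose from 47.6 ± 4.16 to 90.5 ± 7.42 CPM (SD, n = 3 each; edgeR adjusted p = 0.00158). SRRT, which links the cap-binding complex to the exosome, rose from 66.3 to 117 CPM (log2 0.82), and TENT4B, a poly(A) polymerase that marks RNA for decay, from 9.63 to 18.6 CPM (log2 0.95). DIS3L, an exosome nuclease of the cytoplasm, rose by 0.70 on the log2 scale, a call lost on leaving out replicate 1 or 2 of the sensitive or 2 of the resistant group. XRN1 and TENT4A also rose, and EXOSC1 and ZCCHC7 fell, and these 4 calls were lost without resistant replicate 2 (adjusted p = 0.168, 0.133, 0.073 and 0.143). XRN1 and TENT4A also lost them without resistant replicate 1 or any 1 sensitive library (0.078 to 0.154), XRN1 with no low count filter (0.055) and TENT4A with limma-voom (0.061). ZCCHC7 lost its call without sensitive replicate 1 or 3 or resistant replicate 1 (0.059 to 0.073) and with library totals alone (0.074). Without resistant replicate 2 the list had 3 higher and 0 lower, and without both libraries numbered 3 9 higher and 9 lower.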

How the data were processed

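RNA counts were compared between 3 azacitidine-sensitive and 3 azacitidine-resistant K562 libraries. The authors deposited raw counts per Ensembl gene. Their processing notes, as submitted, name Trimmomatic 0.39, HISAT2 2.2.1 and featureCounts with Subread 2.0.3, on GRCh38. Neither the annotation release nor the strand setting is given there, nor the unit counted (read or fragment). Whether the biological replicates of the labels were separate cultures is not stated, and p-values therefore measure a spread that may be technical.

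Symbols came from a reference name table (61369 of 61487 IDs), and positions and exons from GENCODE 29 (58312 IDs). LINC02964 and LINC01512 were placed by RefSeq, without strand, and have no neighbour here. Membership used raw CPM, a count over the library total. The comparison of the groups used edgeR 4.0.16 (R 4.3.3, filterByExpr, 20891 genes, TMM factors, robust quasi-likelihood test, two-sided), and a gene is called where its adjusted p (Benjamini-Hochberg, over all genes) is below 0.05. Every adjusted p is from this fit unless another tool or a left-out library is named, and the scripts were tested on simulated counts. With 200 genes changed in that simulation, edgeR called 96% of the 4-fold and 68% of the 2-fold changes. Unchanged genes made up 9.89% of the edgeR calls, 21.9% of the DESeq2 calls and 5.49% of the limma-voom calls. Such shares depend on how many genes change. In the data 2054 genes were called higher and 2741 lower, so the simulated shares do not carry over to those calls. SEs of log2 fold changes were approximated as size over the square root of F. An exact permutation of 3 against 3 libraries cannot give a p under 0.1. Where a library has 0 counts the limit is 3 counts of its total, or 0.0698 to 0.0909 CPM. Intervals and this limit cover counting error only.

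Named members were the 8 highest per kb of exon in each group, the called members with non-overlapping libraries at the extremes of fold change (12 a side), the 5 uncalled members with the highest CPM, the rows at the edge of the rule, LINC00507 and LINC02393, and groups within 200 kb with every member called. Promoter sequences were those of the 3 highest and 3 lowest fold changes with an entry, leaving out members on chromosome 8. Of the decay list the 4 smallest adjusted p were named in full. The members and lists were chosen with earlier results of these data known. Alternatives were DESeq2 1.42.0, limma-voom (limma 3.58.1), other scalings, filters, thresholds and membership rules, and leaving out libraries.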

Additional observations from a re-analysis of the deposited data

How the results depend on the processing

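Over 191 genes followed (members and genes near them among others) and 16 alternatives, 1 of which kept only 170 of the genes, no called direction reversed, and 27 of the 82 called members (9 higher, 18 lower) lost their call with at least 1 library left out. With each library left out in turn, 11 to 27 members rose and 47 to 63 fell, with a median log2 fold change of -0.28 to -0.22. The nearest protein-coding genes gave 8 to 22 higher and 19 to 39 lower, pairs in the same direction 7 to 22, and the decay list 3 to 7 higher and 0 to 6 lower. Without both libraries numbered 3 38 members rose, 32 neighbours rose and 46 fell, 34 pairs moved in the same direction, and 9 decay genes fell. At an adjusted p below 0.01 the members were 12 higher and 41 lower, the neighbours 8 and 17, the pairs 8, and 0 decay genes fell (2 at 0.05 with edgeR, 3 with DESeq2). A test against 1.5-fold (glmTreat) gave 12 higher and 41 lower. Membership at 5 CPM gave 11 and 40, membership in both groups 8 and 28, and members overlapping no other gene 8 and 39. Library totals alone moved the members' median to -0.046 and left 1 decay gene lower, and no low count filter gave 4 lower. The membership settings hold fewer members by construction, and for the other settings the cause was not tested.

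Same-numbered libraries shared some variation, most clearly those numbered 3. Same-numbered deviations from the group means correlated at 0.20, 0.085 and 0.30 across genes, against -0.31 to 0.23 for libraries of different numbers. Sensitive replicate 2 correlated best with resistant replicate 1 (0.23), so the numbers did not match the libraries throughout. With the replicate block the members were 29 higher and 69 lower with a median of -0.22, neighbours 22 and 37, same-direction pairs 23, and decay genes 7 higher and 6 lower. The block added calls for LINC02864 (adjusted p = 0.037), KCNJ16 (0.0020) and NCAM2 (0.027), all lower, and removed none among the genes followed.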

Other observations

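Of 230 LINC-named rows under 2 CPM in both groups that could be tested, 20 rose (8.70%) and 34 fell (14.8%; edgeR, adjusted p below 0.05), near the 9.83% and 13.1% of all tested genes. LINC00837 on chromosome 10 had 0 counts in each sensitive library and 66, 60 and 76 counts in the resistant libraries, a mean of 1.88 raw CPM that lies just under the rule. LINC01203 on chromosome X had 0 counts in sensitive libraries and 49, 11 and 31 in resistant libraries. LINC00528 had 4 counts over the sensitive and 203 over the resistant libraries. In the other direction LINC01322, LINC02252, LINC02434 and LINC01122 had 90, 81, 65 and 41 counts over the sensitive and 0 over the resistant libraries. These rows were chosen by size of change after their values were seen.

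Beside LINC02820 on chromosome 12, which went from 7.87, 6.01 and 8.71 to 1.77, 1.66 and 1.6 CPM (log2 -2.17, edgeR adjusted p = 0.000269), both tested protein-coding genes within 1 Mb fell. This place was chosen after its values were seen, and its 2 genes are fewer than the 3 asked for in the medians above. NTS, which encodes the neurotensin precursor, went from 41.9, 22.2 and 34.3 to 0, 0.151 and 0.498 CPM (log2 -7.21, and -8.66 without resistant replicate 3), and SLC6A15, an amino acid transporter, from 1.17, 2.28 and 1.18 to 0.111, 0.0754 and 0.105 CPM (log2 -3.95).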
